A study of Mus musculus with 9 samples.

Results

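The cadherins and the nonclustered protocadherins were taken from the array by name: every probe set whose single gene symbol was Cdh or Pcdh followed by a number and at most 1 letter. The rule used no measured value and found 72 of the 45037 probe sets tested, which stand for 33 of 18193 genes. Of these genes, 21 were cadherins (39 probe sets) and 12 were protocadherins (33 probe sets). RNA came from the sclerotome, the somite-derived mesenchyme that forms vertebrae and intervertebral discs, of E11.5 mouse embryos. The tissue was taken from below the neural tube after the notochord had been removed, dissociated with collagenase and plated as micromass cultures, in which dense drops of cells can form cartilage. Cultures were left untreated or received BMP4 at 50 ng/ml or TGF-β1 at 5 ng/ml for 8 hours, with 3 arrays per group, and all groups shared the same serum-containing medium with ascorbic acid and β-glycerolphosphate. The study describes the embryos as wild type and does not name their strain. By the sample records the factors were added on the day after plating, and by the culture description once the cells had attached, so the age of the culture at treatment is not certain.

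Cadherins are calcium-dependent adhesion molecules of the cell surface. The classical cadherins, divided into type I and type II, bind β-catenin and p120-catenin through their cytoplasmic tails and so connect to actin, and cells tend to sort by the kind and amount of classical cadherin they carry. In limb mesenchyme, cadherins such as N-cadherin take part in the condensation that comes before cartilage. Protocadherins lack this catenin-binding tail. The nonclustered ones are divided into δ-1 and δ-2 members, which are best known from the developing nervous system, and paraxial protocadherin (Pcdh8) is known from the segmentation of the mesoderm that gives rise to somites.

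The sequences just upstream of the 5 genes with the largest called rises after BMP4 are shown. The genes were picked by that comparison alone, and after TGF-β1 Pcdh10 was called lower and Cdh10 higher. Each run is the 250 bases before the annotated start, on the gene's own strand, 5′ to 3′, from RefSeq (GRCm38.p6). The positions are chr3:45378148-45378397 on the plus strand for Pcdh10, chr2:165234738-165234987 on the minus strand for Cdh22, chr15:13173676-13173925 on the minus strand for Cdh6, chr15:18820079-18820328 on the plus strand for Cdh10 and chr14:84443313-84443562 on the plus strand for Pcdh17. Capitals mark 3 motifs searched on both strands: GGCGCC, a GC-rich SMAD site, CAGAC or its complement GTCTG, a SMAD element, and CACCTG or CAGGTG, an E-box.
Pcdh10: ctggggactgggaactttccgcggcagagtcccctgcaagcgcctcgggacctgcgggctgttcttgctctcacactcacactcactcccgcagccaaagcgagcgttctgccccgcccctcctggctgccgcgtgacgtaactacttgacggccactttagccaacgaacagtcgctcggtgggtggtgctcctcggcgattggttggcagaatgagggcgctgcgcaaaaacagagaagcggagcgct
Cdh22: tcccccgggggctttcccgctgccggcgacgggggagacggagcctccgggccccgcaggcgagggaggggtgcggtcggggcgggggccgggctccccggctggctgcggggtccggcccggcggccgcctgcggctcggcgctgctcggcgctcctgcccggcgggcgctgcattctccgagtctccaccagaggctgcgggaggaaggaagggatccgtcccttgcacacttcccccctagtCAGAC
Cdh6: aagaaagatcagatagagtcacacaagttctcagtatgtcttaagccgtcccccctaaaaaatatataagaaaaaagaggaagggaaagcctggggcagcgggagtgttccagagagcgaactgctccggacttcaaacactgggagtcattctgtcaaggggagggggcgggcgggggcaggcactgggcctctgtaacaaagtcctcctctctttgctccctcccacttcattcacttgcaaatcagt
Cdh10: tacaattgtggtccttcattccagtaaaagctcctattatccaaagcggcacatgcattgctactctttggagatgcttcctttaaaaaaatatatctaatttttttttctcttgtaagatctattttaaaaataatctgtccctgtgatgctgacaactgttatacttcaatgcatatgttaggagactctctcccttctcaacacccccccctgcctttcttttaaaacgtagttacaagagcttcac
Pcdh17: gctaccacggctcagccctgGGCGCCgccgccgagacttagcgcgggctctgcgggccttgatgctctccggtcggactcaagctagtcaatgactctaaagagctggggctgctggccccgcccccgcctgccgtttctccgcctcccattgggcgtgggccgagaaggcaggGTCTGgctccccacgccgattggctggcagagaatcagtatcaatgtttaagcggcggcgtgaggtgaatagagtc
No letters of the 3 motifs stood in the windows of Pcdh10, Cdh6 and Cdh10. Cdh22 held CAGAC from position -5, and Pcdh17 held GGCGCC from position -230 and GTCTG from position -76, counted back from the gene's start. Of the 32851 mouse promoter windows of the same length, 9.59% held GGCGCC, 42.2% held CAGAC or GTCTG, and 17.2% held CACCTG or CAGGTG, and no 2 motifs overlapped in the 5 windows. Among the members, 20 genes with 23 windows had a sequence, and 1 window held GGCGCC, 10 held CAGAC or GTCTG and 3 held CACCTG or CAGGTG. The G and C content of the 5 windows ran from 36.8% for Cdh10 and 51.2% for Cdh6 through 63.2% for Pcdh10 and 64.8% for Pcdh17 to 77.6% for Cdh22. A matching stretch is a description of the letters and says nothing of binding.

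The deposited values are log2 signals centred, for each probe set, on its median over the 9 arrays. They keep differences between arrays and no expression levels, so whether a member was expressed above background could not be judged and none was removed for low signal. The SD over all probe sets of an array ran from 0.177 to 0.258. The study set the experiment up on separate occasions, so the p values reflect the variation among such set-ups, and only 3 per group limit the precision. Both growth factors were compared with the same 3 untreated arrays, so the 2 comparisons are not independent, and their values are given side by side. RNA per cell and the number of cells of a type cannot be told apart in these cultures. A probe set was called at an adjusted p under 0.05, from limma with the Benjamini-Hochberg method over all 45037 probe sets.

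**Figure D1:**
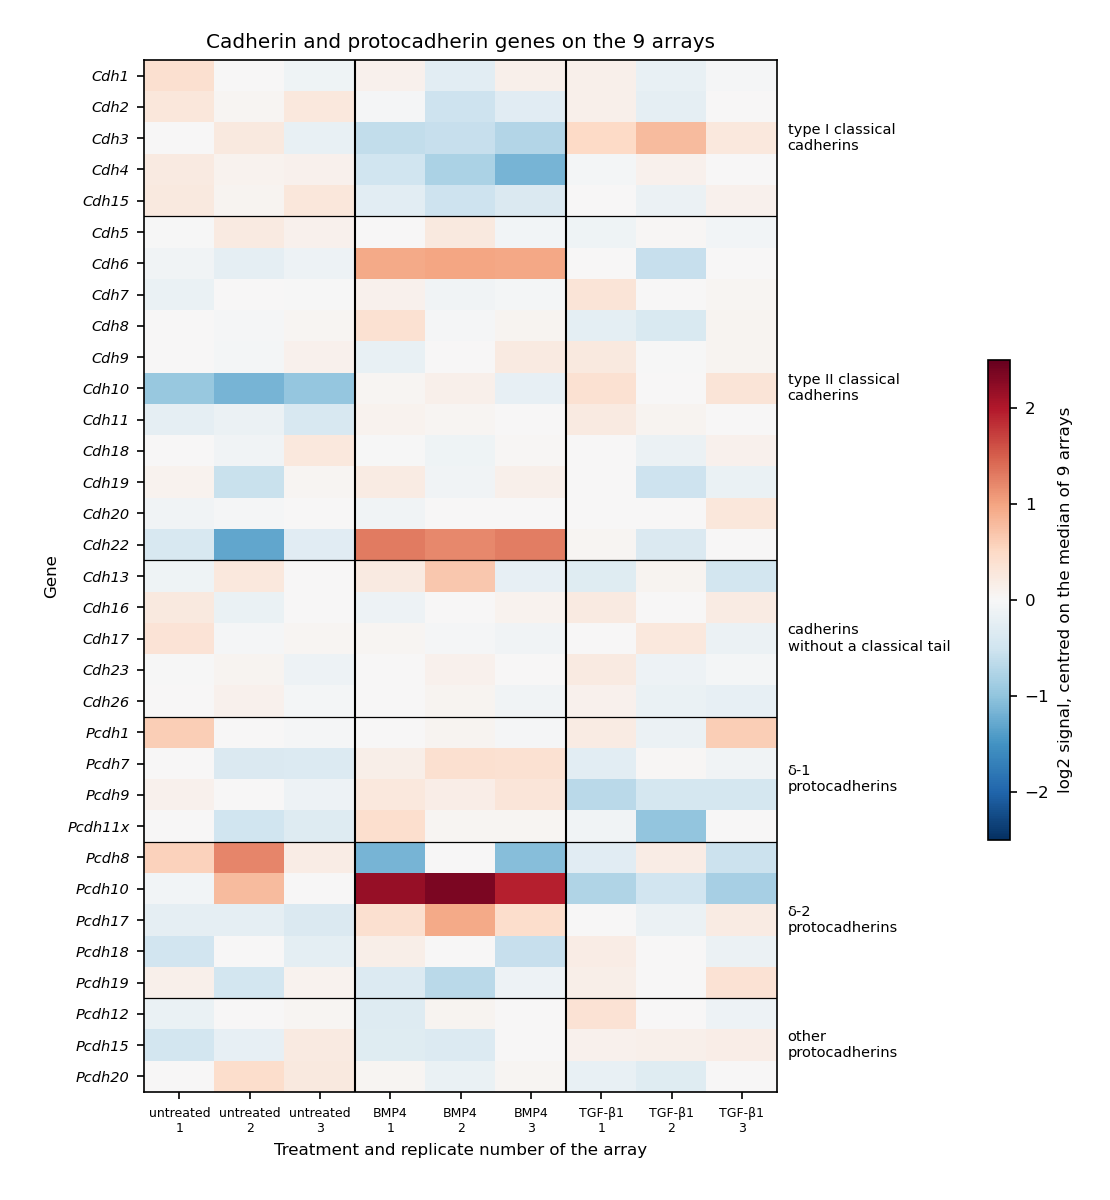
Heat map of the 33 cadherin and protocadherin genes (rows, grouped by kind) on the 9 arrays (columns, by treatment and replicate number). Colour is the log2 signal centred on the median of the 9 arrays. Pcdh10, Cdh22 and Cdh6 stand out on the 3 BMP4 arrays, Cdh10 is low on the 3 untreated arrays, and most other rows stay pale.

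Treatment with BMP4 for 8 hours raised 6 member genes and lowered 4. The genes that rose were the type II cadherins Cdh22, Cdh6 and Cdh10, the δ-2 protocadherins Pcdh10 and Pcdh17, and the δ-1 protocadherin Pcdh7. Those that fell were the type I cadherins Cdh4, Cdh3 and Cdh15 and the δ-2 protocadherin Pcdh8. The largest rises, of Cdh22 and Pcdh10, were 3.79-fold and 3.76-fold, and the largest fall, of Pcdh8, was 2.65-fold. The 10 genes called were 30.3% of the 33 members, where 7.96% of all 18193 genes were called. With the replicate number as a block in the model, 12 genes were called (36.4%, against 13.1% of all genes). The block added Cdh2, lower, and Cdh11, higher. Higher calls made up 18.2% of members against 3.45% of all genes, and lower calls 12.1% against 4.51%.

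Counted by probe set, 18 of 72 were called after BMP4, 25% against 5.44% of all probe sets. Of these, 11 were higher (15.3%, background 2.31%) and 7 lower (9.72%, background 3.13%). The median log2 difference was 0.05 over the members and 0.00 over all probe sets, and the median size of the difference was 0.155 against 0.0991. Differences of at least 2-fold were found for 8 member probe sets, 11.1% against 1.09% of all probe sets. Without adjustment, 24 of the 72 had p under 0.05 (33.3%, background 17.1%).

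**Figure D2:**
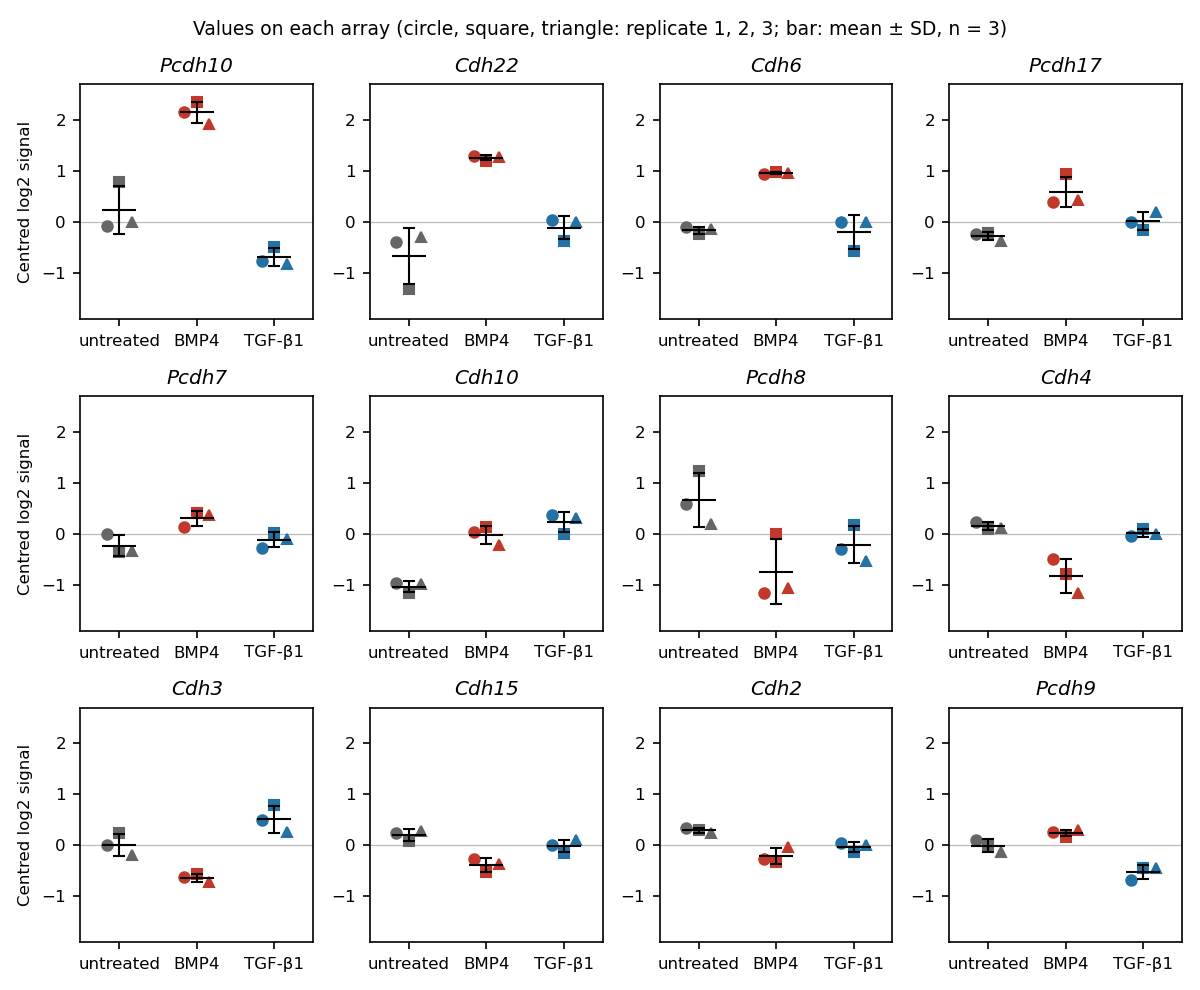
Centred log2 signal on each array for the 12 genes with a called probe set in any comparison. Circles, squares and triangles are replicates 1, 2 and 3, and bars give the mean ± SD (n = 3). The BMP4 arrays lie clear of the untreated arrays in all 12 panels, including Pcdh9, whose BMP4 difference was not called (limma adjusted p = 0.20). The genes were picked by their calls, so this separation follows in part from the selection. The share of all probe sets that separate in this way was not counted. The leading probe sets of Cdh11 and Pcdh11x, not called, separated too, whereas another Pcdh9 probe set overlapped. The Cdh2 panel shows its called probe set, and the others the probe set with the largest variance.

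Pcdh10, a δ-2 protocadherin that takes part in axon growth, read -0.07, 0.79 and 0 on the untreated arrays, 2.17, 2.35 and 1.93 on the BMP4 arrays and -0.75, -0.48 and -0.82 on the TGF-β1 arrays (centred log2 signal). All 3 BMP4 arrays stood above, and all 3 TGF-β1 arrays below, the untreated range. The BMP4 difference was 1.91 ± 0.21 (SE, log2, n = 3 per group, limma adjusted p = 0.00080). The gene had 6 probe sets, and 4 of them were called higher after BMP4. The other 3 called differences were 1.24, 1.18 and 0.80 on the log2 scale, whereas the remaining pair gave 0.25 and 0.19 and was not called.

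Cdh22, a type II cadherin first described in pituitary and brain, read -0.39, -1.30 and -0.29 untreated, 1.30, 1.21 and 1.29 with BMP4 and 0.05, -0.37 and 0 with TGF-β1. The BMP4 arrays lay within a narrow band well above all others, and the untreated arrays spread widely because replicate 2 was low. The difference after BMP4 was 1.92 ± 0.23 (SE, log2, limma adjusted p = 0.0013), from the gene's only probe set.

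Cdh6, a type II cadherin of the embryonic kidney and the neural crest, read -0.09, -0.23 and -0.13 untreated and 0.94, 0.98 and 0.96 with BMP4. With TGF-β1 it read 0.01, -0.57 and 0, which overlapped the untreated values. BMP4 raised it 2.16-fold (log2 difference 1.11 ± 0.14, limma adjusted p = 0.0016), and its other probe set rose by 0.91 (log2). The 3 BMP4 arrays differed little among themselves, with an SD of 0.020 (n = 3).

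Cdh10, a type II cadherin of the brain, rose with both growth factors. It read -0.95, -1.16 and -0.97 untreated, 0.04, 0.13 and -0.21 with BMP4 and 0.38, 0 and 0.31 with TGF-β1, so that the 3 untreated arrays were the 3 lowest. The rise was 2.02-fold after BMP4 (1.02 ± 0.12, SE, log2, limma adjusted p = 0.0014). It was 1 of 4 probe sets of the gene, and the other three gave 0.11, -0.13 and 0.10 and were not called. With the mean of all 4 probe sets in place of the leading one, the adjusted p for Cdh10 after BMP4 was 0.055 (limma, log2 difference 0.28).

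Pcdh17, a δ-2 protocadherin of synapses, read -0.22, -0.22 and -0.36 untreated and 0.39, 0.94 and 0.45 with BMP4. Its rise was 0.86 ± 0.15 (SE, log2, limma adjusted p = 0.0077), and its other probe set rose by 0.83. Pcdh7, a δ-1 protocadherin, read 0, -0.35 and -0.34 untreated and 0.14, 0.40 and 0.38 with BMP4, a difference of 0.54 ± 0.12 (SE, log2, limma adjusted p = 0.032). The groups did not overlap for Pcdh7, but its lowest BMP4 array stood only just above the highest untreated one, and 1 of its 3 probe sets was called.

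Among the type I cadherins, 3 of 5 genes fell after BMP4 and none rose, with a median difference of -0.59 over the 5. Cdh4 (R-cadherin, known from the retina) read 0.23, 0.09 and 0.12 untreated, -0.50, -0.79 and -1.17 with BMP4 and -0.05, 0.10 and 0 with TGF-β1. It fell by 0.97 on the log2 scale with BMP4 (SE 0.14, limma adjusted p = 0.0036), and a second probe set fell by the same 0.97 with an SE of 0.10, while its remaining one gave no call. Every BMP4 array lay below every other array for both called probe sets.

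Cdh3 (P-cadherin, known from epithelia) read 0, 0.24 and -0.19 untreated, -0.62, -0.57 and -0.72 with BMP4 and 0.49, 0.78 and 0.26 with TGF-β1. The 3 groups did not overlap, with BMP4 lowest and TGF-β1 highest. The fall after BMP4 was 1.57-fold (log2 difference -0.65 ± 0.14, limma adjusted p = 0.025), in 1 of 2 probe sets.

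Cdh15 (M-cadherin, of myoblasts and satellite cells) read 0.24, 0.08 and 0.29 untreated and -0.27, -0.52 and -0.35 with BMP4, and fell (log2 difference -0.59 ± 0.10, limma adjusted p = 0.0077). Cdh2 (N-cadherin, of mesenchyme, muscle and nerve cells) had 1 called probe set, which read 0.34, 0.29 and 0.24 untreated, -0.27, -0.32 and -0.03 with BMP4 and 0.05, -0.14 and 0 with TGF-β1. That probe set fell 1.41-fold after BMP4 (log2 difference -0.50, SE 0.09, limma adjusted p = 0.012). The Cdh2 probe set with the larger variance, by which the gene was counted, gave -0.47. It was not called without the replicate block (limma adjusted p = 0.081) and was called with it. Cdh1 (E-cadherin, the epithelial member) gave -0.11 ± 0.15 and was not called.

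Pcdh8, the paraxial protocadherin, read 0.58, 1.23 and 0.19 untreated, -1.16, 0 and -1.06 with BMP4 and -0.29, 0.18 and -0.53 with TGF-β1. BMP4 replicate 2 stood well above the other BMP4 arrays, as untreated replicate 2 did among its own group, and no BMP4 array reached the untreated values. The differences within replicate numbers were -1.74, -1.23 and -1.24. The fall after BMP4 was 1.40 on the log2 scale in size (difference -1.40 ± 0.34, limma adjusted p = 0.039), and the second probe set gave -1.44 ± 0.26 (limma adjusted p = 0.011).

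Some of these BMP4 calls were lost with 1 array fewer, while the differences kept their direction: over the 9 omissions the first Pcdh8 probe set ran from -1.77 to -1.12, Cdh3 from -0.76 to -0.54, Pcdh7 from 0.48 to 0.65 and the called Cdh2 probe set from -0.58 to -0.44. Leaving out 1 array at a time lost the call of Pcdh8's first probe set without untreated replicates 1 or 2, BMP4 replicates 1 or 3, or TGF-β1 replicates 1 or 3 (limma adjusted p 0.056 to 0.15), of its second without BMP4 replicate 1 (0.051), and of Pcdh7 without untreated 2 or 3, BMP4 2 or 3, or TGF-β1 3 (0.054 to 0.12). Cdh3 lost its call without untreated 1 or 2 or any BMP4 array (0.065 to 0.080), Cdh2 without BMP4 1 or 2 (0.055), and the second Pcdh17 probe set without BMP4 2 (0.052). The calls of Pcdh10, Cdh22, Cdh6, Cdh10, Cdh4, Cdh15 and the first Pcdh17 probe set passed the threshold without any 1 array.

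**Figure D3:**
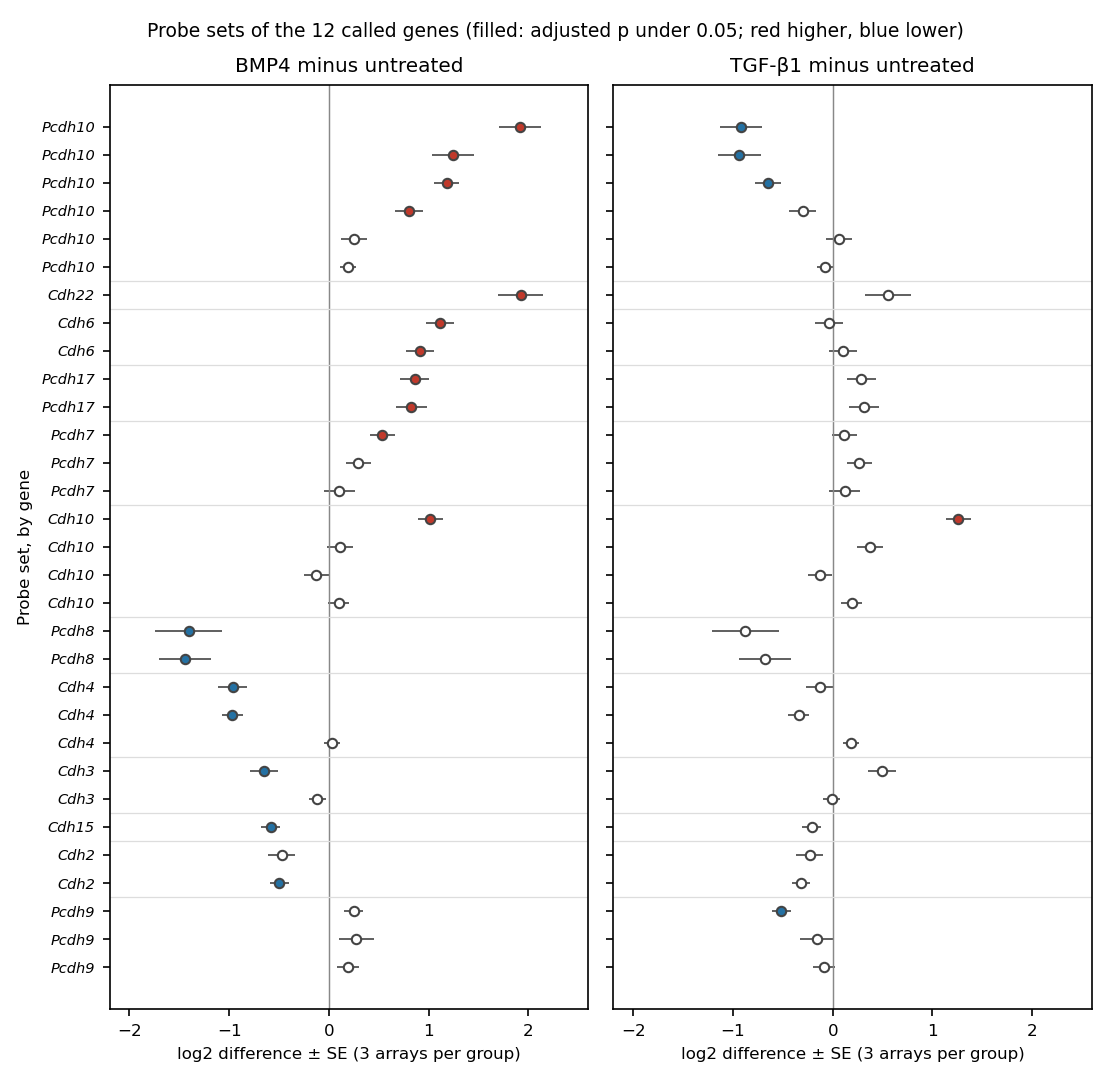
log2 difference ± SE of each probe set of the 12 called genes, after BMP4 (left) and after TGF-β1 (right) against the same 3 untreated arrays. Filled points had an adjusted p under 0.05, red higher and blue lower. The plot has 4 of the 6 Pcdh10 probe sets in red on the left and 3 in blue on the right, whereas 1 of the 4 Cdh10 probe sets is red on both sides.

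TGF-β1 changed fewer members against the untreated arrays. Cdh10 rose 2.40-fold, and Pcdh10 and Pcdh9 fell 1.90-fold and 1.43-fold. The 3 genes called were 9.09% of members, near the 6.75% of all genes. By direction, 3.03% of members were higher (2.54% of all genes) and 6.06% lower (4.21% of all genes). Of the 72 probe sets, 5 were called, 6.94% against 4.43% of all probe sets. One was higher (1.39%, background 1.83%) and 4 were lower (5.56%, background 2.6%), 3 of them of Pcdh10. Without adjustment, 19 had p under 0.05 (26.4%, background 18.7%). The median difference was -0.00 over the members and 0.01 over all probe sets, and its median size was 0.173 against 0.114.

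Cdh10 was the only member called higher with TGF-β1 without the replicate block (log2 difference 1.26 ± 0.12, limma adjusted p = 0.00061), in the same probe set that rose after BMP4. Its differences between arrays of the same replicate number were 1.33, 1.16 and 1.29. The other 3 Cdh10 probe sets gave 0.38, -0.13 and 0.19 and were not called, and the mean of all 4 gave 0.42 (limma adjusted p = 0.010). For Pcdh10, the first probe set gave -0.92 ± 0.21 (SE, log2, limma adjusted p = 0.038), and 2 others gave -0.94 and -0.65. The first 4 Pcdh10 probe sets had TGF-β1 arrays that did not overlap the untreated ones. Its differences within replicate numbers were -0.68, -1.27 and -0.82, negative in 3 of 3.

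Pcdh9, a δ-1 protocadherin, read 0.11, 0 and -0.13 untreated, 0.26, 0.17 and 0.30 with BMP4 and -0.68, -0.44 and -0.45 with TGF-β1. The TGF-β1 arrays were the 3 lowest and the BMP4 arrays the 3 highest. The fall after TGF-β1 was 0.52 in size (log2 difference -0.52 ± 0.10, limma adjusted p = 0.015), in 1 of 3 probe sets. With the mean of its probe sets in place of the leading one, the difference was -0.25 (limma adjusted p = 0.11).

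Arrays with the same replicate number tended to deviate together in the TGF-β1 comparisons, most of all those numbered 2. Untreated replicate 1 was an exception, with a correlation of 0.20 to TGF-β1 replicate 3 and of 0.14 to TGF-β1 replicate 1. A model with the replicate number as a block called 9 member probe sets after TGF-β1 (12.5%), where 8.95% of all probe sets were called. The genes called rose from 3 to 6, or 18.2% of members against 13.4% of all genes. The genes gained were Cdh3 (0.50, adjusted p = 0.0093 with the block and 0.086 without) and Cdh11 (0.36, 0.023 with and 0.056 without), both higher, and Pcdh8 (-0.88, 0.0049 with and 0.19 without), lower. The Cdh3 differences within replicate numbers were 0.49, 0.54 and 0.45, and those of Pcdh8 were -0.87, -1.05 and -0.71, so each kept 1 direction in 3 of 3.

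With 1 array fewer, several TGF-β1 calls were lost, also where the array left out belonged to BMP4 and did not enter the difference. Over the 9 omissions the first Pcdh10 probe set ran from -1.08 to -0.65, the second from -1.22 to -0.77, the other one from -0.80 to -0.57 and Pcdh9 from -0.58 to -0.44. The first Pcdh10 probe set was not called without BMP4 replicate 1 or any of the TGF-β1 arrays (limma adjusted p 0.059 to 0.13), the second without untreated 1 or 2, any BMP4 array, or TGF-β1 1 or 3 (0.054 to 0.13), and the other one without untreated 1 or 2 or TGF-β1 1 or 3 (0.063 to 0.084). Pcdh9 was not called without untreated 1 or TGF-β1 1 (0.060 and 0.059). The number of member probe sets called fell to 1 without TGF-β1 replicate 1, to 2 without untreated replicate 1 or TGF-β1 replicate 3, and to 3 without untreated replicate 2 or BMP4 replicate 1. Calls over all 45037 probe sets fell as well, from 1993 with all arrays. They were 903 without TGF-β1 replicate 1, 982 without untreated replicate 1 and 867 without TGF-β1 replicate 3. Without untreated replicate 2 they were 1061, and without BMP4 replicate 1 they were 1521. The number of genes fell to 1 without TGF-β1 replicate 1, and was 2 without untreated replicate 1, BMP4 replicate 1, or TGF-β1 replicate 2 or 3.

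Set directly against each other, the growth factors differed most at Pcdh10. Its TGF-β1 arrays were 7.14-fold below its BMP4 arrays (log2 difference -2.83 ± 0.21, limma adjusted p = 6.3e-05). The differences within replicate numbers were -2.92, -2.83 and -2.76, and 4 of its 6 probe sets were called. Cdh22 (-1.37 ± 0.23, adjusted p = 0.0056), Cdh6 (-1.15 ± 0.14, adjusted p = 0.00095), Pcdh9 (-0.77 ± 0.10, adjusted p = 0.0011) and Pcdh17 (-0.57 ± 0.15, adjusted p = 0.043) were also lower with TGF-β1 than with BMP4. Cdh3 (1.15 ± 0.14, adjusted p = 0.0011) and Cdh4 (0.84 ± 0.14, adjusted p = 0.0063) were higher. Cdh10 gave 0.24 between the growth factors and was not called (limma adjusted p = 0.31), with overlapping arrays.

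In this direct comparison 7 genes were called, 21.2% of members against 10.1% of all genes. Of the genes, 2 were higher with TGF-β1 (6.06%, background 4.73%) and 5 lower (15.2%, background 5.38%). Of the probe sets, 12 were called (16.7%, background 6.91%), 3 higher (4.17%, background 3.41%) and 9 lower (12.5%, background 3.49%). Without adjustment, 28 had a limma p under 0.05 (38.9%, background 20%). With the replicate block, 22 member probe sets were called (30.6%, background 11.7%), and 11 genes (33.3%, background 16.8%). The genes gained with the block were Cdh15 (0.37, adjusted p = 0.010), Pcdh19 (0.55, 0.0056), Pcdh8 (0.53, 0.031), all higher with TGF-β1, and Cdh13 (-0.47, 0.033), lower. The call of Pcdh17 in this comparison was lost without any 1 of 8 arrays, all but BMP4 replicate 1 (limma adjusted p 0.052 to 0.14). The calls of Pcdh10, Cdh22, Cdh6, Pcdh9, Cdh3 and Cdh4 were kept without any 1 array.

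By kind, the type II cadherins had 3 genes higher and 8 not called after BMP4, and 1 higher and 10 not called after TGF-β1. The δ-2 protocadherins had 2 higher, 1 lower and 2 not called after BMP4, and 1 lower and 4 not called after TGF-β1. The δ-1 protocadherins had 1 higher of 4 after BMP4 and 1 lower of 4 after TGF-β1. The 5 cadherins without a classical tail and the 3 other protocadherins had no call in any comparison by limma without the replicate block, which added Cdh13 between the growth factors. At an unadjusted p under 0.05 in at least 1 comparison there were 2 of the 9 probe sets of the cadherins without a classical tail and 3 of the 8 of the other protocadherins. In single comparisons, the share of all probe sets under it was 17.1% after BMP4, 18.7% after TGF-β1 and 20% between the growth factors. Between BMP4 and TGF-β1, the type I cadherins had 2 genes higher with TGF-β1 and 3 not called. Over all genes, 7.96% were called after BMP4, 6.75% after TGF-β1 and 10.1% between the growth factors. The kinds are small, so 1 gene moves their share widely.

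Without the replicate block, 21 of the 33 genes had no called probe set in any comparison. With the block, 4 of these 21 gained a call: Cdh11 with each growth factor against untreated, and Cdh13, Pcdh11x and Pcdh19 between the growth factors. Their 41 probe sets gave differences from -0.39 to 0.45 (log2) against untreated with either growth factor. A missing call does not show that a gene stayed the same. Cdh11 (OB-cadherin), a type II cadherin of mesenchyme, read -0.23, -0.15 and -0.41 untreated, 0.09, 0.04 and 0 with BMP4 and 0.23, 0.07 and 0 with TGF-β1. Its untreated arrays were the 3 lowest, and its differences were 0.31 (limma adjusted p = 0.095, or 0.042 with the block) and 0.36 (0.056, or 0.023 with the block). The second Cdh11 probe set gave -0.05 and 0.17.

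Cdh5 (VE-cadherin, the endothelial member) gave -0.05 after BMP4 and -0.16 after TGF-β1, and its other probe set gave 0.06 and 0.19. Cdh13 (T-cadherin, which is held in the membrane by a lipid anchor) gave 0.18 and -0.28 at its leading probe set. Among the δ-2 protocadherins, Pcdh18 gave 0.10 and 0.25, and Pcdh19 gave -0.30 and 0.25. All 3 Pcdh19 probe sets were below 0 after BMP4 (-0.30, -0.20 and -0.11) and above 0 after TGF-β1 (0.25, 0.24 and 0.30), with no call against untreated.

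In the GRCm38.p6 gene order, several members lie next to each other. Cdh6, Cdh9 and Cdh10 follow each other on chromosome 15 with 0 protein-coding genes between them. Cdh6 rose with BMP4 alone, Cdh10 was called with both growth factors, and Cdh9 between them gave -0.00 and 0.08. On chromosome 8, Cdh3, called lower after BMP4, lies beside Cdh1, which was not called. On chromosome 14, Pcdh8 and Pcdh17 have 1 protein-coding gene between them and were called in opposite directions after BMP4, and Pcdh9 lies farther along, next to Pcdh20. Pcdh10 and Pcdh18 have 1 gene between them on chromosome 3, and only Pcdh10 was called. The Pcdh8 to Pcdh17 contrast stood in both probe sets of each gene.

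For this list and those below, the shares of all genes called were 7.96% after BMP4, 6.75% after TGF-β1 and 10.1% between the growth factors. At an unadjusted p under 0.05 the shares of all probe sets were 17.1%, 18.7% and 20%, in the same order. Among 17 catenins and other partners of cadherins, 2 were called higher and 3 lower after BMP4, and 0 after TGF-β1 (limma), where 2 had an unadjusted p under 0.05. Jup (plakoglobin) fell by 0.69 and Afdn (afadin, of nectin junctions) by 0.58. Ctnnbip1, an inhibitor of β-catenin binding to TCF factors, rose by 0.84, and Ctnnd2 by 0.38. Directly between the growth factors, 4 of the 17 were higher with TGF-β1 and 2 lower. The 9 desmosomal genes measured had 0 calls by limma in the 3 comparisons, with an unadjusted p under 0.05 for 1 of them, between the growth factors.

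Among 12 atypical large cadherins and their partners, 3 were called lower after BMP4 and 1 higher after TGF-β1. Directly between the growth factors, 3 of the 12 were higher with TGF-β1 and 0 lower by limma. Fat3 gave 0.49, 0 and 0.17 untreated and -1.03, -1.43 and -0.71 with BMP4, and fell 2.43-fold (limma adjusted p = 0.0058). Clstn1, a calsyntenin, fell by 0.45 and Dchs1 by 0.42 on the log2 scale. Fjx1, the mouse counterpart of a fly kinase that acts on Fat and Dachsous, read -0.04, -0.27 and -0.05 untreated, 0.05, -0.44 and 0 with BMP4 and 1.25, 1.24 and 1.20 with TGF-β1. It rose 2.55-fold with TGF-β1 (limma adjusted p = 0.000495), and its BMP4 difference was -0.01. Of 23 clustered protocadherin genes, 0 were called by limma after BMP4 (1 at an unadjusted p under 0.05) and 1, Pcdhb21, was lower after TGF-β1 (-0.41). Between the growth factors, 2 of the 23 were lower with TGF-β1 and 0 higher by limma.

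Of 10 transcription factors known to repress or switch cadherins, 1 was called higher and 3 lower after BMP4, and 2 lower after TGF-β1. Directly between the growth factors, 1 of the 10 was higher with TGF-β1 and 4 lower, where 10.1% of all genes were called. Snai1, a repressor of E-cadherin, read 0.01, -0.32 and 0 untreated, 0.96, 1.11 and 0.94 with BMP4 and -0.40, -0.89 and -0.51 with TGF-β1, and rose 2.15-fold after BMP4 (limma adjusted p = 0.0015). Snai2 read 0.02, -0.30 and 0 untreated, 0.70, 0.46 and 0.81 with BMP4 and -0.97, -1.87 and -1.12 with TGF-β1. It fell 2.34-fold after TGF-β1 (limma adjusted p = 0.011), and after BMP4 it gave 0.75 and was not called (0.072). Zeb2 fell by 0.84 after TGF-β1, and Twist1 fell by 0.79 after BMP4. Beside these values, Cdh1 ranged from -0.26 to 0.41 over the 9 arrays.

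**Figure D4:**
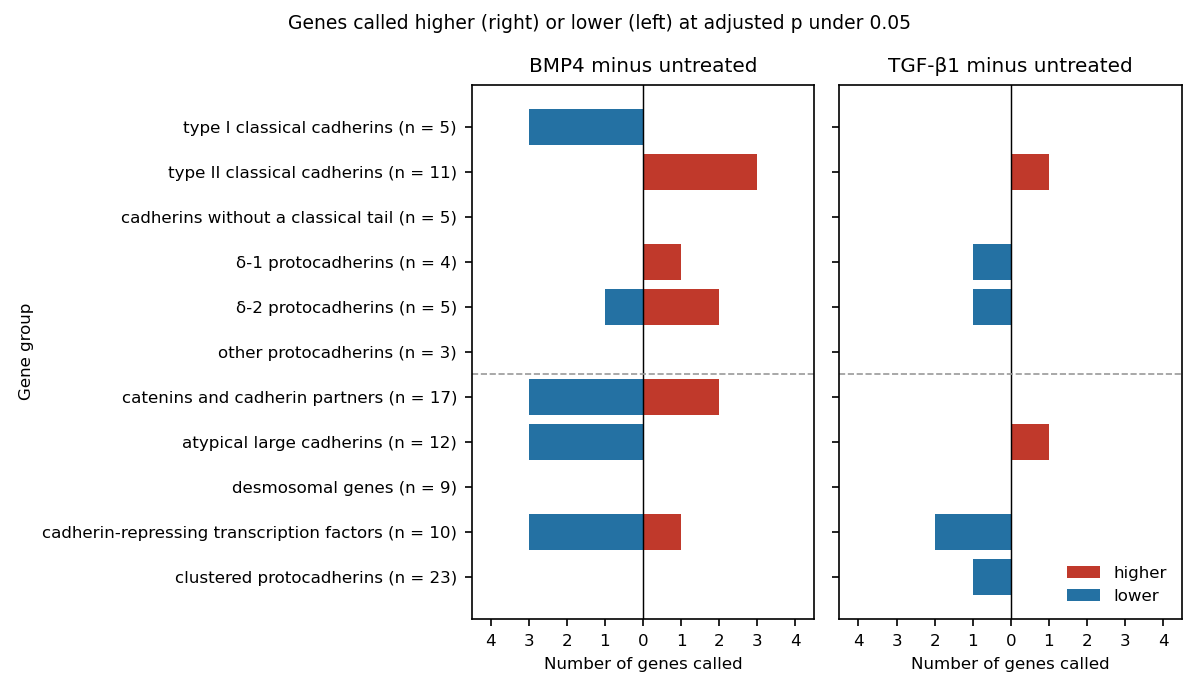
Number of genes called higher (red, right) or lower (blue, left) after BMP4 and after TGF-β1 against the same untreated arrays, for each kind of cadherin and protocadherin (above the dashed line) and for the related gene lists (below). n is the number of genes measured. After BMP4 the type I cadherins show 3 genes lower and the type II cadherins 3 higher.

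Markers of the cultured tissue and of cells that could be carried along moved as follows, where 7.96% of all genes were called after BMP4 and 6.75% after TGF-β1. At an unadjusted p under 0.05 the shares of all probe sets were 17.1% after BMP4 and 18.7% after TGF-β1. Of 9 sclerotome genes, 5 were lower after BMP4 (Pax1, Meox1, Meox2, Uncx and Twist1) and 0 were called by limma after TGF-β1 (2 at an unadjusted p under 0.05). The mean centred value of that list ran from -0.00 to 0.49 on the untreated arrays, from -0.49 to -0.44 with BMP4 and from -0.02 to 0.19 with TGF-β1. For skeletal muscle, whose list holds Cdh15, Myf5 rose by 0.83 after BMP4 while Cdh15 fell, with 8 of 10 not called, and Myh3 fell after TGF-β1. The mean of the muscle list ran from 0.06 to 0.15 untreated and from -0.08 to 0.05 with BMP4, and from -0.24 to -0.06 with TGF-β1, where 5 of the 10 genes had an unadjusted p under 0.05 and the list means lay below all untreated ones.

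Because many protocadherins are known from nerve cells, the neuronal list was read beside them. Of 10 neuronal genes, Map2 rose and Nefl fell after BMP4, and Nefl fell after TGF-β1, with list means from -0.04 to 0.18 untreated, from -0.26 to 0.24 with BMP4 and from -0.61 to -0.08 with TGF-β1. For the 6 neural crest and Schwann cell genes, Fabp7 rose after BMP4 (1.17), and the list means ran from -0.20 to 0.10 untreated, from 0.06 to 0.26 with BMP4 and from -0.30 to 0.03 with TGF-β1. Of 10 endothelial genes, Erg alone was called, higher with both growth factors. Of 9 epithelial and notochord genes, Krt19 rose with both and Krt18 fell with BMP4. Of 8 macrophage genes, Cd68 fell with TGF-β1. Centring removed the levels, so whether any defining marker was absent could not be judged, and the part of these cells in the cadherin results was not tested.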

How the data were processed

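RNA from 9 sclerotome cultures (3 untreated, 3 with BMP4, 3 with TGF-β1) was amplified from 50 ng of total RNA, labelled with biotin and hybridised to Affymetrix mouse arrays. The authors deposited log2 signals from RMA in GeneSpring (version not given in the sources used here), with each probe set centred on its median over the arrays (largest row median 0, range -3.83 to 4.01). Groups and replicate numbers came from the sample titles, no array was left out, and 0 pairs of arrays were identical. Of 45101 probe sets, 64 controls were removed. Of the 45037 left, 34945 had 1 gene symbol, 932 several and 9160 none. All 72 member probe sets were found in the RefSeq gene table by Entrez identifier, and 0 symbols changed. A gene was represented by its probe set with the largest variance, chosen without the groups.

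A linear model of the 3 groups was fitted in limma 3.58.1 (R 4.3.3) over all arrays (degrees of freedom 6 residual and 4.01 prior; the residual SD had a median of 0.129). P values are two-sided and adjusted by Benjamini-Hochberg over 45037 probe sets, with calls under 0.05. The fit was tested on simulated data. Deviations of same-numbered arrays correlated at 0.14 to 0.49 between untreated and TGF-β1 and at 0.29 to 0.50 between BMP4 and TGF-β1. Between untreated and BMP4 they correlated at -0.05, 0.50 and 0.24 for replicates 1, 2 and 3. Untreated replicate 1 correlated more with the arrays numbered 3 (0.36 for BMP4, 0.20 for TGF-β1) than with those of its own number. The pairing by number is therefore uncertain for that array. Numbers that pair the arrays in the TGF-β1 comparisons would pair untreated with BMP4 arrays as well. The replicate block is therefore given beside the main fit in all 3 comparisons. The study describes separate repeats of the experiment, which the numbers may mark. The alternatives were a replicate block, leaving out arrays, fits of 2 groups, other scalings, robust variances, a per-probe-set test with unequal variances as in the study's methods, single-symbol probe sets alone, and gene means.

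Genes are named with values if any probe set was called in any comparison, if they belonged to a set of 18 cadherins and protocadherins chosen for their known roles or earlier results, or if they were among the 3 largest differences in a comparison. From the lists of catenins and partners, atypical large cadherins, desmosomal genes, cadherin-repressing factors and clustered protocadherins, up to 4 called genes are named. Cdh9, Pcdh11x and Pcdh20 fall outside this rule and were chosen after their values were seen. Marker lists covered sclerotome, neurons, neural crest and Schwann cells, endothelium, epithelium and notochord, skeletal muscle and macrophages. The members and lists were chosen with earlier results of these data known. Python 3.11.15 and matplotlib 3.10.9 drew the figures.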

Additional observations from a re-analysis of the deposited data

How the results depend on the processing

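Every called difference of a named cadherin or protocadherin kept its direction under all alternatives run. Arrays centred on their medians, robust variances and testing single-symbol probe sets alone lost none of the 35 called differences, and neither did the replicate block. The block called 20 member probe sets after BMP4 (12 higher, 8 lower; 27.8%, against 9.03% of all probe sets), 9 after TGF-β1 and 22 between the growth factors. It called 12 genes after BMP4 (36.4%, against 13.1% of all genes), 6 after TGF-β1 and 11 between the growth factors. For BMP4 against untreated, the block added Cdh2 and Cdh11 to the genes called. Without the 3 arrays numbered 2, 9 of the 35 lost their call. With only the 2 compared groups in the model 6 were lost, and 2 member probe sets remained called after TGF-β1. Over all 45037 probe sets, that fit called 1172 after TGF-β1, against 1993 in the main fit. Quantile normalization lost 1, Cdh3 after BMP4 (adjusted p = 0.054). With the mean of all probe sets of a gene, 2 of 20 called gene differences were lost. The methods' unequal-variance test gave 0 member probe sets and 0 member genes in each comparison after adjustment. Over all probe sets it then called 0 after BMP4, 0 after TGF-β1 and 11 between the growth factors, so these counts are not particular to the members. Without adjustment, at p under 0.05, the unequal-variance test gave 20 member probe sets after BMP4 (27.8%, background 10.3%), 9 after TGF-β1 (12.5%, background 11.1%) and 16 between the growth factors (22.2%, background 13.7%). Limma without adjustment gave 24 (33.3%, background 17.1%), 19 (26.4%, background 18.7%) and 28 (38.9%, background 20%). Leaving out 1 array at a time gave 1 to 5 member probe sets and 1 to 3 member genes after TGF-β1. Over all 45037 probe sets these fits called 867 to 2053. Fits without an array or a group have fewer samples, and the cause of the other changes was not tested.

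Some differences that were not called changed sign. With gene means, Cdh5 became 0.0020 after BMP4, 0.014 after TGF-β1 and 0.012 between the growth factors, and Cdh6 after TGF-β1 became 0.035. Without the arrays numbered 2, Cdh6 after TGF-β1 was 0.12 and Pcdh7 after TGF-β1 was -0.014. Without single arrays, Cdh1 ran from -0.22 to 0.042 after BMP4, from -0.24 to 0.022 after TGF-β1 and from -0.15 to 0.058 between them. Over the same omissions, Cdh5 after BMP4 ran from -0.14 to 0.0091, Cdh6 after TGF-β1 from -0.13 to 0.16, Cdh13 after BMP4 from -0.038 to 0.40 and Cdh11 between the growth factors from -0.0089 to 0.11. Pcdh18 ran from -0.043 to 0.32 after BMP4 and from -0.066 to 0.29 between the growth factors. Signal over background could not be assessed.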
